A study of Mus musculus with 14 samples.

Results

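Slc44a5, Pkd2l1, Fam38b and Npbwr1 are 4 of the 23427 genes measured by mRNA-seq in mouse oligodendrocyte precursor cells (OPCs) and the oligodendrocytes (OLs) they turn into. They were chosen by symbol because each was high in cells given an siRNA against Pdgfra (siPdgfra) and low in the other groups, so their levels in all 7 groups are described here and not tested. Fam38b is an older symbol of Piezo2. The high levels in siPdgfra were thus part of the choice. Slc44a5 was also above every control library in siSbp2l, and so was Npbwr1, barely so in its lower library. Pkd2l1 was raised in 1 of the control groups.

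The study asked what Sbp2l, the product of Secisbp2l, does in OL maturation, and siPdgfra cells were one of the groups sequenced beside the Sbp2l knockdown (KD). The 14 libraries fall into 7 groups of 2. All cells were primary OPCs of C57BL/6J mice, purified from pooled cortices of young pups on dishes coated with an antibody against the Pdgfra protein. The Day0 group (WT) was taken before differentiation. The other groups were taken at Day3 of differentiation: non-treated (WT), mock transfected (WT), NC siRNA #1 (WT), NC siRNA #2 (WT), siSbp2l (Secisbp2l knockdown) and siPdgfra (Pdgfra knockdown). The non-treated, mock and both NC siRNA groups are called the 4 controls. Pdgfra KD is represented by 1 group, so an effect of lower Pdgfra and an effect of the siRNA on other mRNAs cannot be told apart. The libraries hold bulk RNA, in which more cells of a type and more RNA per cell cannot be told apart either. The study's methods call the 2 libraries of a group independent replicates of cultured OPCs, without saying whether cultures or animals were separate. The sample labels do not state independence, and the p-values given below for other genes measure the spread between these libraries.

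Pdgfra is the receptor through which platelet-derived growth factor keeps OPCs dividing, and its mRNA falls as OPCs become OLs. The 4 genes have different roles. Slc44a5 belongs to the choline transporter-like family of membrane proteins, and choline is the head group of phosphatidylcholine, a main membrane lipid. Pkd2l1 encodes polycystin 2-like 1, a cation channel best known from taste cells and from neurons that contact the cerebrospinal fluid around the spinal cord canal. Piezo2, the product of Fam38b, is a channel opened by mechanical force and serves touch and position sense. Npbwr1 is a G protein-coupled receptor for neuropeptides B and W, known mainly from neurons.

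The promoter of Slc44a5 is shown because this gene reached the highest level of the 4. It runs from 250 bases before to 50 bases after the start of the gene, on the plus strand at chr3:153973186-153973485 (GRCm38.p6, the RefSeq promoter set, the same build as the mm10 gene model of the data). Capitals mark the matches to the motifs searched.
Slc44a5: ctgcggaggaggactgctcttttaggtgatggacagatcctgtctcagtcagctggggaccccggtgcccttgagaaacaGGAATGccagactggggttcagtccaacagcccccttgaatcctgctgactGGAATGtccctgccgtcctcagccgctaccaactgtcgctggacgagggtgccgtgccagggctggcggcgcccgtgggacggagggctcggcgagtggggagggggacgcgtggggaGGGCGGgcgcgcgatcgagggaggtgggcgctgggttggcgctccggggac
Its GC content was 67.7%, higher than in 86.8% of 32851 RefSeq promoters of the same length, and it held 23 CpG dinucleotides against a median of 7. The TEAD motif GGAATG was matched 2 times on the forward strand, with first bases at positions -170 and -119 (the first base of the gene is +1), and 14.7% of all promoters hold it on either strand. The GC box GGGCGG was matched once, with its first base at -1, and 35.7% of promoters hold it. The matches do not overlap each other. No match was found on either strand for AP-1 (TGANTCA), CRE, the TATA box (TATAAA), the CCAAT box (CCAAT), the Sox motif (ACAAAG), the Forkhead motif (TGTTTAC), the E-box (CACGTG) or the TCF/LEF motif (CTTTGAT). A match is a run of letters in this window and no evidence of binding.

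Levels are FPKM, the fragments of a gene scaled to its exon length and to the depth of its library, so they can be compared between genes of different length. The steps between low values gave a depth of 6559093 fragments in the shallowest library, NC siRNA #2 replicate 2, and of 31620710 in the deepest, Day0 replicate 1. The pair of libraries of a group differed on the log2 scale with an SD over genes of 0.148 to 0.2 in 6 groups, but of 0.457 in the non-treated group, whose libraries stand apart from each other. The targeted mRNA was low in both siPdgfra libraries, with Pdgfra at 3.30 and 2.69 FPKM against 32.4 to 72.1 in the 8 control libraries, 150 and 144 in siSbp2l and 409 and 436 at Day0. OL markers were present, as 10 of 10 tested OL markers were called higher at Day3 than at Day0, where 11.4% of all genes were.

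The transporter Slc44a5 lies on chromosome 3, plus strand, 153973436 to 154271720 (mm10, as are all gene coordinates here). It was at 101 and 91.5 FPKM in siPdgfra. The 8 control libraries lay between 4.56 and 6.69 FPKM, with a median of 4.93. Both siPdgfra libraries were thus far above every control, and the mean of siPdgfra (96.5 ± 7.06 FPKM, SD, n = 2) was 18.9 times the mean of the controls. The siSbp2l libraries held an intermediate level of 11.6 and 12.3 FPKM, 2.34 times the mean of the controls and above all 8 of them. The Day0 libraries were the lowest at 2.64 and 2.56 FPKM. In the order of the group means, siPdgfra stood above siSbp2l, siSbp2l above the controls and the controls above Day0, each step wider than the spread of the libraries. The 4 controls did not separate from each other. Behind these levels stood 8894 and 7488 fragments in siPdgfra and 136 to 585 in a control library, so counting error was small.

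The channel gene Pkd2l1 (chromosome 19, minus strand, 44147637 to 44192442) was at 21.1 and 20.7 FPKM in siPdgfra. The non-treated libraries had 0.165 and 0.141 FPKM, the mock libraries 0.130 and 0.159 and the NC siRNA #2 libraries 0.244 and 0.184. NC siRNA #1 stood apart from these controls, at 2.47 and 2.01 FPKM. Its mean was 15.5 times that of mock and 10.7% of that of siPdgfra. The siSbp2l libraries had 0.327 and 0.111 FPKM and the Day0 libraries 0.267 and 0.348, within or near the range of the other 3 controls. The siPdgfra mean (20.9 ± 0.266, SD, n = 2) was therefore 136 times the non-treated mean, 144 times the mock mean and 97.5 times the NC siRNA #2 mean, but 9.32 times the NC siRNA #1 mean. The low levels rested on few fragments, 4 to 15 in a library of non-treated, mock or NC siRNA #2 cells, and the 127 and 162 fragments in NC siRNA #1 and 1373 and 1497 in siPdgfra were well above that. Below NC siRNA #1, the order of the group means was Day0, siSbp2l, NC siRNA #2, non-treated and mock, and of these neighbours only NC siRNA #2 and non-treated differed by more than the spread of their libraries.

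Fam38b (chromosome 18, minus strand, 63010213 to 63387183), the gene of the touch channel Piezo2, was at 28.0 and 30.3 FPKM in siPdgfra. The 8 control libraries lay between 1.65 and 2.86 FPKM, with 1.84 and 1.76 in siSbp2l. Both siPdgfra libraries were above all others, with a mean (29.1 ± 1.63 FPKM, SD, n = 2) 12.7 times that of the controls. The siSbp2l libraries lay inside the control range. Day0 was far below every Day3 library, at 0.212 and 0.232 FPKM from 72 and 56 fragments. Among the Day3 groups below siPdgfra, mock was above non-treated by more than the spread of their libraries, and the other neighbouring groups were not separated.

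The receptor gene Npbwr1 (chromosome 1, minus strand, 5913707 to 5917398) was at 9.69 and 7.79 FPKM in siPdgfra. No other library reached 1 FPKM. The controls lay between 0.081 and 0.248 FPKM and siSbp2l at 0.441 and 0.250, all above the floor of 3 fragments in their library. Both Day0 libraries were listed at 0, which allows up to 0.0361 FPKM at the shallower of them. The siPdgfra mean (8.74 ± 1.34 FPKM, SD, n = 2) was 56.6 times the mean of the controls, from the lowest siPdgfra level of the 4 genes. This fold over the mean was wider than that of Pkd2l1 (30.3), but over non-treated, mock and NC siRNA #2 alone, where Npbwr1 had 103, 48.0 and 47.9 times, Pkd2l1 had the wider fold. The siSbp2l libraries were higher than every control library, the lower of them barely so, and their gap to NC siRNA #2 was smaller than the sum of the SDs (0.345 ± 0.135 against 0.182 ± 0.0923 FPKM). Non-treated cells were below NC siRNA #1 by more than the spread, and the other neighbouring controls were not separated. The fragments numbered 766 and 575 in siPdgfra, 33 and 20 in siSbp2l and 6 to 14 in a control library.

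**Figure D1:**
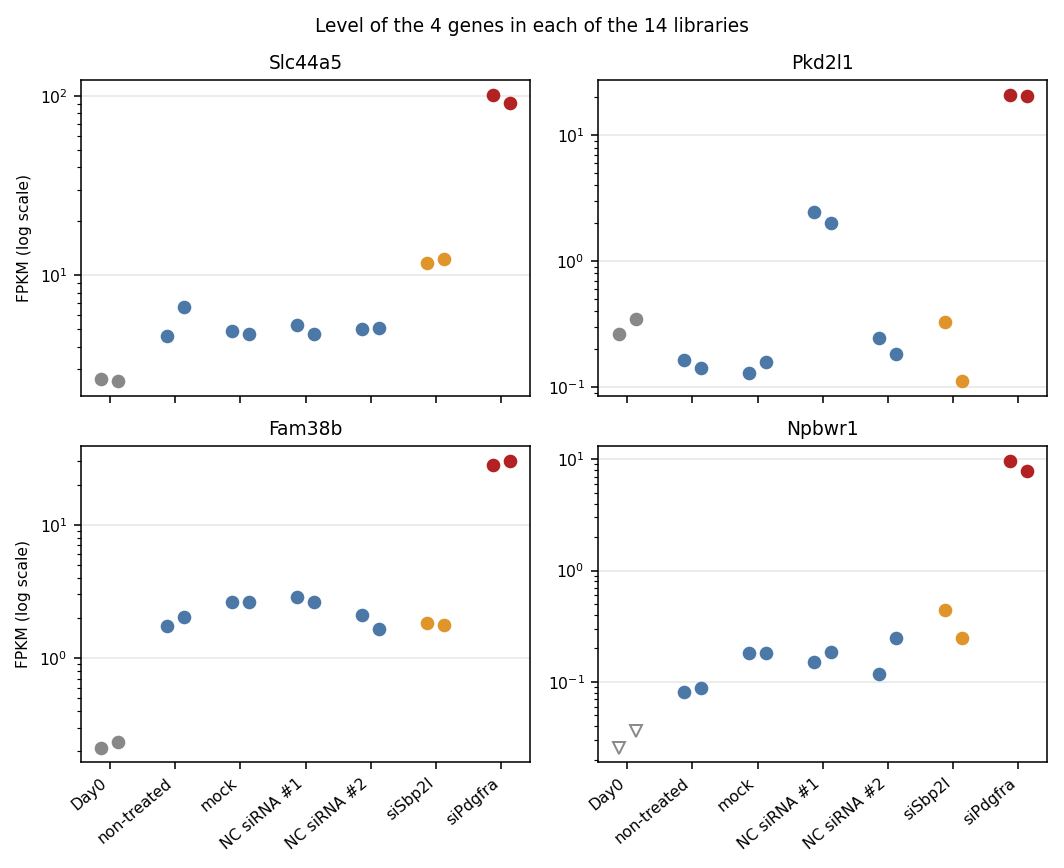
FPKM of each of the 4 genes on log axes, with 1 point per library in 7 groups: Day0 grey, the 4 controls blue, siSbp2l orange, siPdgfra red. Open triangles mark the Day0 libraries in which Npbwr1 was listed at 0, drawn at the floor of 3 fragments. In every panel both siPdgfra points are the highest, Slc44a5 is raised in siSbp2l to 11.6 and 12.3 FPKM, and Pkd2l1 is raised in NC siRNA #1 to 2.47 and 2.01 FPKM.

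The 4 genes moved from low ranks to middle or high ones. In siPdgfra, Slc44a5 was above 93.2% to 94.3% of the 11650 genes tested at Day3, Fam38b above 73.2% to 74.8%, Pkd2l1 above 64.6% to 65.2% and Npbwr1 above 38.0% to 43.2%. In the control libraries Slc44a5 was above 27.3% to 37.9% of them, and Npbwr1 above 0.155% to 0.755%. On the log2(FPKM + 1) scale used for the tests below, the differences between siPdgfra and the mean of the 4 controls were 4.0007 for Slc44a5, 3.86 for Pkd2l1, 3.21 for Fam38b and 3.07 for Npbwr1. A gene was called when the difference was at least 2-fold either way and its adjusted p from limma was under 0.05. The differences of the 4 genes were past the 2-fold limit, as they were chosen to be high in siPdgfra, and were not tested. Of all genes tested, 3.97% were called higher. Npbwr1 entered the test only through its siPdgfra libraries, and without siPdgfra Pkd2l1 would have entered only through NC siRNA #1. These differences are set by the pseudocount for the low genes, and that of Npbwr1 was 5.14 with a pseudocount of 0.1 and 1.41 with one of 5. In siSbp2l, which shares the control libraries, the differences were 1.09 for Slc44a5, -0.31 for Pkd2l1, -0.22 for Fam38b and 0.22 for Npbwr1. That of Slc44a5 was past the 2-fold limit, and 3.12% of all genes were called higher in siSbp2l. As deposited, the median of all genes in siSbp2l was 0.15, and with median-ratio scaling it was 0.00 and Slc44a5 was at 0.94, under the 2-fold limit. With that scaling 214 genes were called higher there in place of 363. The Pkd2l1 difference in siSbp2l came from NC siRNA #1, as it was -1.41 against that control alone and 0.07, 0.09 and 0.00 against non-treated, mock and NC siRNA #2.

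How far the genes stood apart was also measured as the ratio of the lower siPdgfra library to the highest of the 12 other libraries. It was 7.45 for Slc44a5, where a siSbp2l library was the highest of the others, 8.36 for Pkd2l1 and 9.79 for Fam38b, where NC siRNA #1 was, and 17.7 for Npbwr1. Over the genes tested, 12.4% had both siPdgfra libraries above all others and 0.223% (26 genes) had both at least 4 times all others. Ranked on FPKM + 0.1 among the 10783 genes with at least 1 FPKM in both siPdgfra libraries, Npbwr1 was at place 1, Fam38b at 2, Pkd2l1 at 4 and Slc44a5 at 6. The rule that chose the genes has no numeric limit, and genes that were not members lay between them. Cnih3, an auxiliary subunit of AMPA glutamate receptors, was at place 3 with 14.5 and 13.2 FPKM in siPdgfra and 0.666 to 1.5035 elsewhere. Cd200r2 and Cd200r1, receptors of the CD200 family, were at places 5 and 7, with 3.58 to 5.44 FPKM in siPdgfra and up to 0.4995 elsewhere. They are neighbours of 1 family on chromosome 16, and whether they share reads was not checked. Thbs2, a secreted matrix protein of the thrombospondin family, and Cubn, an endocytic receptor, were at places 8 and 9 with 4.68 and 4.83 FPKM and with 4.70 and 3.93 FPKM in siPdgfra. The others of the first 15 were A930003A15Rik, Tmem200a, 2700090O03Rik, Ppapdc1b, Cyp2j12 and Olfr549. Ppapdc1b, at place 13, had 43.8 and 37.8 FPKM in siPdgfra and 3.0026 to 7.82 elsewhere.

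**Figure D2:**
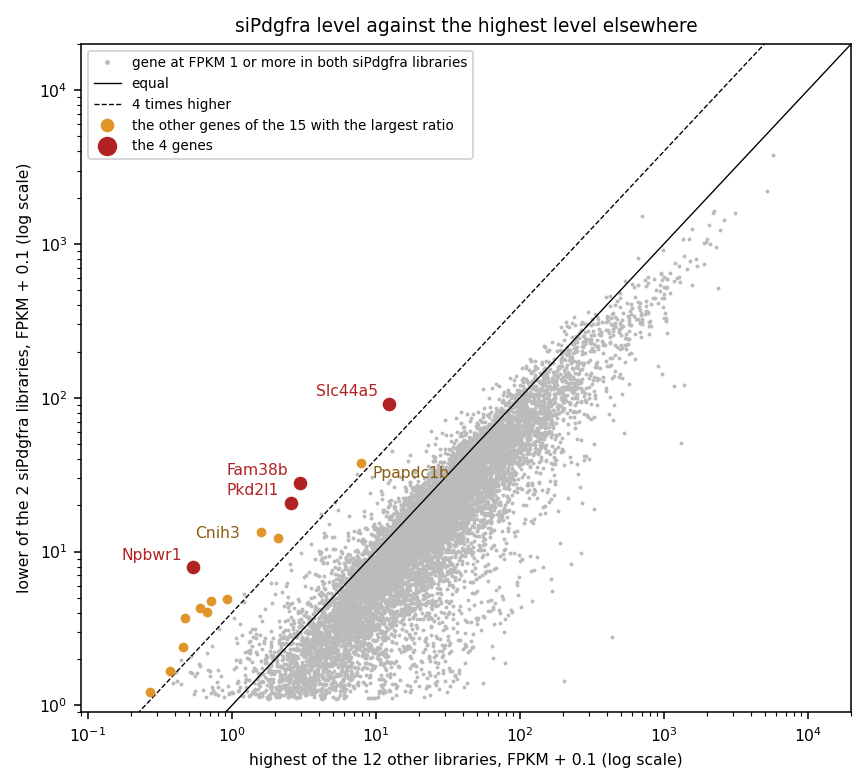
The lower of the 2 siPdgfra libraries against the highest of the 12 other libraries for 10783 genes, as FPKM + 0.1 on log axes, with lines at equality and at 4 times higher. The 4 genes (red) lie above the 4 times line, among the 15 genes with the largest ratio (the others orange), and Slc44a5 is the most abundant of them.

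The course of the 4 genes during differentiation without siRNA was read from Day0 and non-treated Day3 cells, as a description with no test. Fam38b went from 0.212 and 0.232 FPKM at Day0 to 1.75 and 2.04 FPKM in non-treated cells, 8.52 times, with no overlap of the libraries. Its log2 difference was 1.24 (SE 0.10), past the 2-fold limit with a pseudocount of 1, and 0.40 with a pseudocount of 5. Of the 4 genes it alone was past the limit with a pseudocount of 1, and 11.4% of 11874 genes were called higher at Day3. Slc44a5 went from 2.64 and 2.56 to 4.56 and 6.69 FPKM, a difference of 0.86 (SE 0.14), and of 1.09 without non-treated replicate 1. The low levels of Pkd2l1 and Npbwr1 differed by -0.18 (SE 0.11) and 0.12 (SE 0.11). With a floor of 3 fragments for Day0, Npbwr1 was at least 2.35-fold higher in the non-treated mean. Taking mock cells as the Day3 group gave 1.57 for Fam38b, 0.68 for Slc44a5, -0.19 for Pkd2l1 and 0.24 for Npbwr1. The mean of the 4 controls, which holds NC siRNA #1, turned Pkd2l1 to 0.21. Both Day0 libraries lay below all 8 control libraries for Slc44a5, Fam38b and Npbwr1, and 27.2% of all genes tested had this order.

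The levels in cells given an siRNA that targets no gene were set against those in non-treated and mock cells, also with no test of the 4 genes, since low levels in the controls were part of their choice. The log2 differences between both NC siRNA groups and the groups without siRNA were -0.03 for Slc44a5, 0.02 for Fam38b and 0.05 for Npbwr1. Pkd2l1 was at 0.79 (SE 0.08), at 1.78 with a pseudocount of 0.1 and at 0.25 with one of 5, so that whether it passes 2-fold depends on the pseudocount. Of all genes 0.472% were called higher and 0.807% lower in this comparison. The Pkd2l1 difference lay in NC siRNA #1, which differed from NC siRNA #2 by 1.41 (SE 0.11), where 2.36% of genes were called higher and 1.63% lower in NC siRNA #1. The same difference was 0.39 for Fam38b, -0.01 for Slc44a5 and -0.02 for Npbwr1.

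None of the close relatives of the 4 genes rose in siPdgfra by as much as they did. The choice of the 4 for strong rises largely fixed this outcome. Slc44a1, the widely expressed family member that carries choline into cells, went from 13.02 and 13.3 FPKM at Day0 to 292 and 315 in non-treated Day3 cells (4.43, SE 0.10, limma, adjusted p = 4.687e-11). In siPdgfra it was at 142 and 123 FPKM against 205 to 315 in the controls, a fall of 1.01 on the log2 scale (SE 0.08, limma, adjusted p = 6.406e-06). This call lies at the 2-fold limit and was lost, with -0.99, -0.99 and -0.90, without non-treated replicate 2, NC siRNA #1 replicate 2 or siPdgfra replicate 2. It was also lost against NC siRNA #1 alone (-0.68), NC siRNA #2 alone (-0.93) and the 3 controls other than non-treated (-0.95), and with a pseudocount of 5 (-0.99). Slc44a1 was also lower in siSbp2l (106 and 114 FPKM, log2 difference -1.27, limma, adjusted p = 1.473e-06), where 4.08% of genes were called lower. In siPdgfra Slc44a5 thus came nearer to Slc44a1 than in the controls but stayed below it in both libraries. Slc44a2 was level, with 26.6 and 22.3 FPKM in siPdgfra and 18.2 to 30.9 in the controls (0.02, limma, adjusted p = 0.8789). Slc44a3 and Slc44a4 were under 0.15 FPKM in every library. Of the polycystins, Pkd1, the large partner of the channel subunit Pkd2, rose to 24.1 and 19.3 FPKM in siPdgfra from 5.71 to 13.4 in the controls (1.10, SE 0.11, limma, adjusted p = 2.08e-05). Its call was lost without siPdgfra replicate 1 (0.95) and against NC siRNA #1 (0.92) or NC siRNA #2 (0.66) alone, against the 3 controls other than non-treated (0.92), and with a pseudocount of 5 (0.86). Pkd2 was at 20.5 and 20.7 FPKM in siPdgfra and 13.9 to 21.2 in the controls (0.26, limma, adjusted p = 0.01455), so Pkd2l1 reached the level of both. Pkd2l2 was at 0.301 to 1.06 FPKM over all libraries. Pkd1l3, with which Pkd2l1 forms a channel in taste cells, was listed at 0 in both siPdgfra libraries and was at most 0.0463 FPKM elsewhere. Pkd1l2 and Pkdrej were also at 0 in siPdgfra. Fam38a, the gene of the other mechanically gated channel of the family, Piezo1, took the opposite course to Fam38b during differentiation, from 2.0003 and 1.88 FPKM at Day0 to 0.267 and 0.212 in non-treated cells (-1.25, SE 0.08, limma, adjusted p = 6.406e-08), where 15.2% of genes were called lower. It was at 0.407 and 0.354 FPKM in siPdgfra, too low to be tested at Day3. Of the ligands of Npbwr1, Npb had 0.255 and 0.0911 FPKM in siPdgfra and 0.0853 to 0.555 in the controls, and Npw was listed at 0 in all 12 Day3 libraries.

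**Figure D3:**
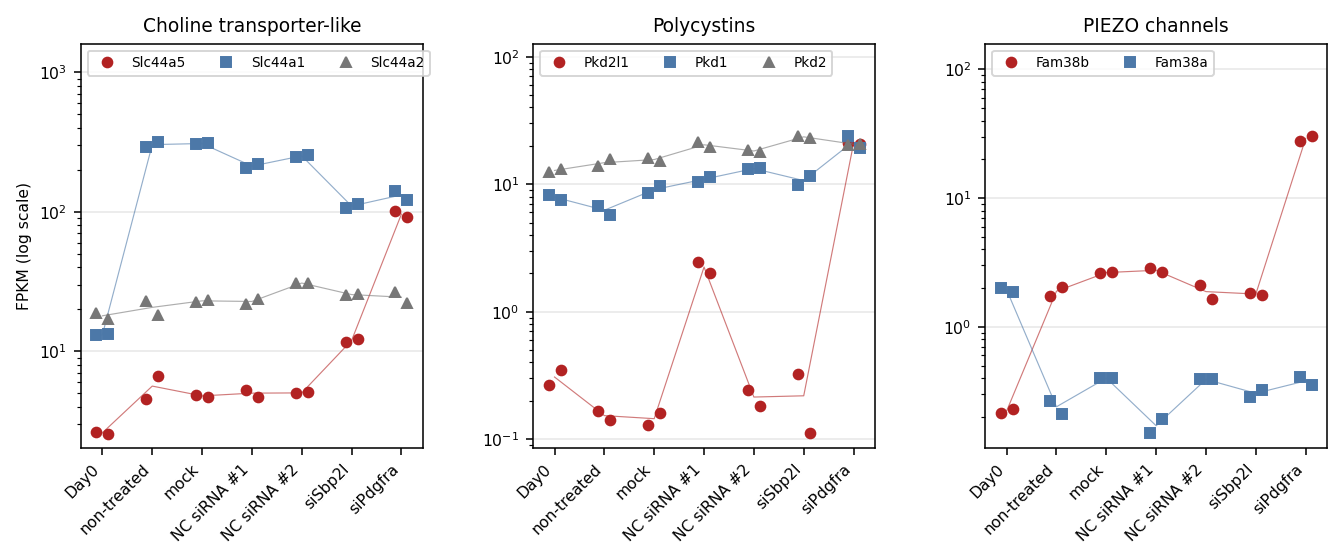
FPKM on log axes of Slc44a5, Pkd2l1 and Fam38b (red circles) and of close relatives (blue squares, grey triangles) in 7 groups, with 2 points per group and thin lines joining the group means. In siPdgfra Slc44a5 stays below Slc44a1 and above Slc44a2, Pkd2l1 reaches the range of Pkd1 and Pkd2, Fam38b is above Fam38a, and Fam38a falls from Day0 to Day3 while Fam38b rises.

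Of 80 listed genes other than the 4 that were tested in siPdgfra, 5 were called higher and 13 lower, where 3.97% and 4.02% of all genes were. The 13 include Pdgfra, the target of the siRNA. In choline transport and phospholipid head group synthesis, none of 12 tested genes rose and 2 fell, Slc44a1 and Pcyt2. Pcyt2, the rate-limiting enzyme of the ethanolamine branch, was at 69.6 and 85.7 FPKM in siPdgfra and 138 to 256 in the controls (-1.19, SE 0.17, limma, adjusted p = 0.0002843), and was not called against NC siRNA #2 alone (-0.86). The median of the list was 0.02, beside 0.09 for all genes. Of 10 tested polycystins and TRP channels only Pkd1 was called, and the median was -0.13. Of 12 tested mechanically gated channels and partners, Stom, a membrane protein that binds ion channels, was called, with 26.1 and 21.8 FPKM in siPdgfra against 48.6 to 81.3 in the controls (-1.35, SE 0.09, limma, adjusted p = 1.238e-06). In the neuropeptide list 2 of 17 genes were tested, and Penk, the precursor of the enkephalin opioid peptides, was called higher. It was at 1.89 and 2.23 FPKM in siPdgfra and 0.0743 to 0.579 in the controls (1.28, SE 0.11). Penk passed the filter only through its siPdgfra libraries, so its call is no independent result and no p-value is given. With a pseudocount of 5 its difference was 0.42, under 2-fold. The interferon response list, of genes that respond to foreign RNA, had no call among 4 tested genes. Of its 18 genes, 5 that were too low to be tested were above all 8 controls in both siPdgfra libraries: Oasl2 (0.387 and 0.367 FPKM against at most 0.0486), Irf7 (0.352 and 0.426 against at most 0.173), Ifih1 (0.457 and 0.535 against at most 0.171), Rsad2 (0.802 and 0.846 against at most 0.499) and Usp18 (0.185 and 0.254 against at most 0.172). Over all 23427 genes 14.7% had this order. Of the 18 genes, 2 were below all 8 controls in both siPdgfra libraries, Mx2 and Ifit3. Mx2 was at 2.64 and 2.79 FPKM against at least 4.66, and Ifit3 at 0.0609 and 0.163 against at least 0.217. The part of these genes in the levels of the 4 genes was not tested.

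Some of the 4 genes are markers of neurons elsewhere, and the markers of other cells were read beside them. Of the markers of neurons that contact the cerebrospinal fluid, 1 of 9 was tested, Dcx, at 7.76 and 7.21 FPKM in siPdgfra (0.55, not called), and Pkd1l2, Myo3b and Espn were at 0 in both siPdgfra libraries. Both siPdgfra libraries were above all 8 controls for 3 of the 9, Dcx, Slc32a1 (0.3498 and 0.268 FPKM against at most 0.0748) and Gata2 (0.447 in both against at most 0.376), an order that 14.7% of all genes had. The summed FPKM of this list was 9.13 and 10.04 in siPdgfra and 4.15 to 8.34 in the controls. Of the markers of somatosensory neurons and Merkel cells, in which Piezo2 is found, 5 of 15 were tested, and 2 fell, the neurotrophin receptors Ntrk2 (-1.79) and Ntrk3 (-1.26), while Scn10a, Krt18 and Krt20 were at 0. In this list 2 of 15 were above all controls in both siPdgfra libraries, Calca (0.248 and 0.317 FPKM against at most 0.174) and Isl1 (0.111 and 0.099 against at most 0.0643). For 4 of the 15, Ntrk2, Ntrk3, Avil and Prph, both siPdgfra libraries were below all 8 controls. Avil was at 0.108 and 0.033 FPKM against at least 0.278, and Prph at 0.0528 and 0.0848 against at least 0.212. The median of the tested genes of the list was -0.72, beside 0.09 for all genes. Of 6 tested general neuron markers Syt1, a synaptic vesicle protein, rose to 4.49 and 4.95 FPKM from 0.354 to 1.70 (1.64, SE 0.07, limma, adjusted p = 1.503e-07). Syt1 was at a like level of 4.94 and 5.16 FPKM in siSbp2l. Slc17a6 and Slc17a7 were at 0. In both siPdgfra libraries 2 of 10 neuron markers were above all 8 controls and 1 was below, Rbfox3 (0.0932 and 0.117 FPKM against at least 0.151). The neuron list summed to 360.2 and 383 FPKM in siPdgfra and 133 to 364 in the controls, so only the higher siPdgfra library lay above them. The sum leaves out Map2, present under the symbol Mtap2, at 103.7 FPKM in the lower siPdgfra library and up to 214 elsewhere. Of 9 microglia markers 6 were at 0 in siPdgfra, Cx3cr1, Aif1, C1qa, C1qb, C1qc and Tmem119. The other high one, P2ry12, was at 7.57 and 6.57 FPKM there, and at 9.46 and 8.78 in NC siRNA #1, against 0.703 to 3.85 in the other controls. Its call in siPdgfra (1.08) was lost without siPdgfra replicate 1 or non-treated replicate 1 (0.99 each) and turned to -0.33 against NC siRNA #1 alone. Endothelial markers summed to 0.573 and 0.929 FPKM in siPdgfra and to 0.076 to 0.647 in the controls, with Cldn5, Cdh5 and Slco1a4 at 0. Pericyte and fibroblast markers summed to 0.629 and 0.793 FPKM and to 1.18 to 3.34. Astrocyte markers were lower, 4 of 7 tested (Gfap, Slc1a2, Slc1a3 and Aldoc, of which Slc1a2 at -0.85 and Slc1a3 at -0.96 were not called against NC siRNA #1 alone), with a sum of 179 to 181 in siPdgfra and 221 to 380 in the controls. Of 10 precursor markers 3 fell, the siRNA target Pdgfra, Lhfpl3 and Bcan (-1.68, and -0.89 against NC siRNA #2 alone, which is not a call). Lhfpl3 and Bcan were called higher in non-treated Day3 cells than at Day0 (1.55 and 1.66). Cspg4 (-0.96), Ptprz1 (-0.37), Olig1 (0.56) and Olig2 (0.22), which were called lower at Day3 than at Day0, were not called in siPdgfra. The list, with Pdgfra in it, summed to 1182 and 1329 FPKM in siPdgfra and 1282 to 1801 in the controls. Of 10 tested OL markers, Mag fell to 59.6 and 59.2 FPKM from 135 to 528 (-2.38, SE 0.17, limma, adjusted p = 2.973e-06), and Ermn was called higher with 5.87 and 6.05 FPKM. Ermn had 14.9 and 12.7 FPKM in NC siRNA #1 and 0.2597 to 1.90 in the other controls, so its difference turned to -1.08 against NC siRNA #1 alone. The OL list summed to 5245 and 6026 FPKM in siPdgfra and 6934 to 10305 in the controls. The part of any of these markers in the levels of the 4 genes was not tested.

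**Figure D4:**
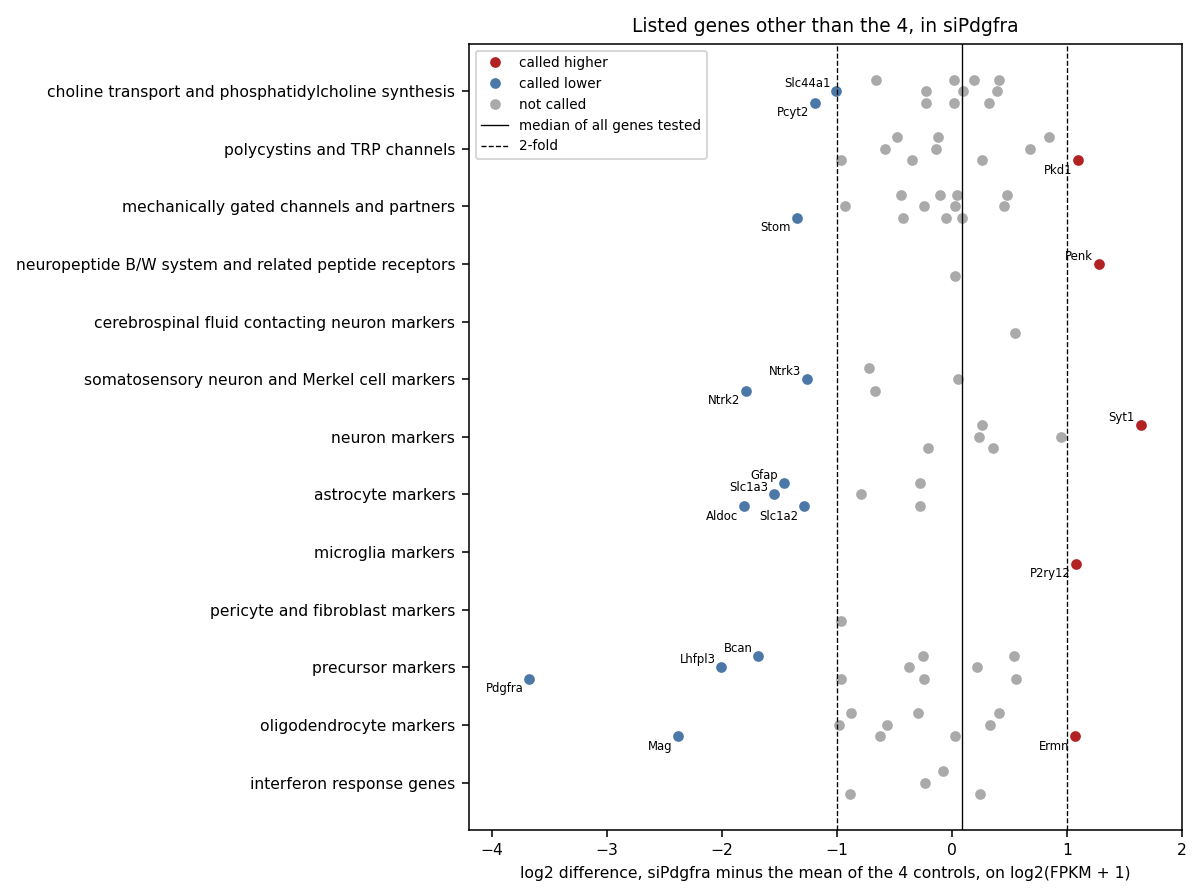
Log2 difference of each tested listed gene (siPdgfra minus the mean of the 4 controls, on log2(FPKM + 1)), by list, with the 4 genes left out. Red and blue points were called higher and lower, the solid line is the median of all genes tested (0.09) and the dashed lines are the 2-fold limits. Most lists straddle the median, and 4 of 7 astrocyte markers lie below the lower limit.

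The 4 genes lie on different chromosomes, and no gene that the table gives as a single locus overlaps any of them. Within 500 kb of them lie 49 other genes, 26 of which were tested. In siPdgfra 1 was called higher and 2 lower, where 3.97% and 4.02% of all genes tested were. Acadm, the medium-chain acyl-CoA dehydrogenase of fatty acid oxidation, starts 28.8 kb before Slc44a5 on the opposite strand and rose to 58.7 and 69.0 FPKM from 20.0 to 26.6 in the controls (1.39, SE 0.09, limma, adjusted p = 1.921e-06). Like Slc44a5, Acadm was also above every control in siSbp2l, at 48.4 and 46.2 FPKM. Rabggtb, further out on the same side of Slc44a5, was at 41.1 and 54.7 FPKM in siPdgfra and 28.5 to 42.2 in the controls (0.45, not called). St6galnac3, a sialyltransferase 248 kb away, fell to 2.91 and 2.67 FPKM from 4.84 to 10.2 (-1.02, SE 0.08, limma, adjusted p = 5.153e-06), a call that was lost without siPdgfra replicate 2 (-0.97) and against 3 of the 4 controls alone. Beside Pkd2l1, Chuk, a kinase of the NF-kappaB pathway, fell to 10.6 and 10.04 FPKM from 20.7 to 32.2 (-1.22, SE 0.14, limma, adjusted p = 5.331e-05). Bloc1s2a, 1.19 kb from Pkd2l1, was at 33.8 and 38.9 FPKM against 19.1 to 24.2 in the controls (0.71, not called). None of the 5 tested neighbours of Fam38b was called, with differences between -0.44 and 0.21, and the only tested neighbour of Npbwr1, Rb1cc1, was at 0.03. No tested neighbour rose by as much as 3.07. Few genes could, as the 4 were chosen for strong rises and ranked 1, 2, 3 and 5 of 11650.

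**Figure D5:**
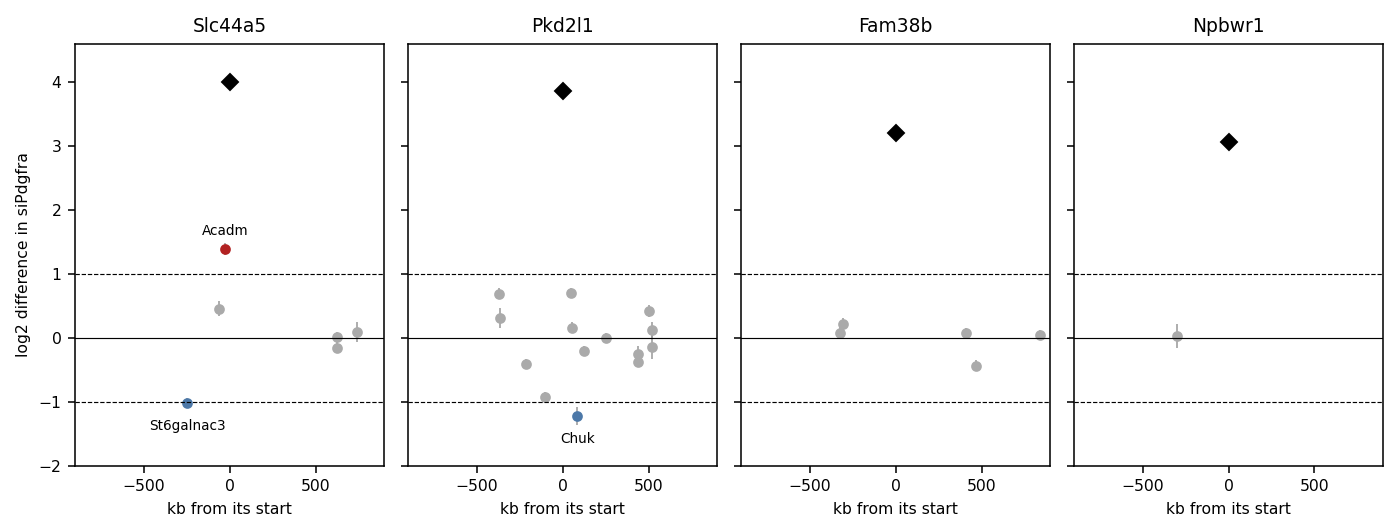
Log2 difference in siPdgfra of the tested genes within 500 kb of each of the 4 genes, against the distance between start sites in kb, counted along the strand of the gene in the panel title, with SE bars. Black diamonds are the 4 genes themselves (3.07 to 4.0007) and dashed lines are the 2-fold limits. Acadm (red) is the only neighbour called higher, and Chuk and St6galnac3 (blue) were called lower.

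All 4 genes were high together only in the siPdgfra pair. Over the 14 libraries the Pearson r of log2(FPKM + 1) between any 2 of the genes was 0.870 to 0.965. The choice of genes high in the siPdgfra pair largely fixed these values in advance. Over the 12 libraries without siPdgfra r was -0.105 (Pkd2l1 and Slc44a5) to 0.814 (Npbwr1 and Slc44a5). Pairs with Pkd2l1 lay between -0.105 and 0.294, and pairs of the other genes between 0.507 and 0.814. How far single groups set these values was not tested. These are descriptions of libraries that share cells and groups. The genes whose pattern was most like that of each member over the 14 libraries were chosen the same way, by r. For Slc44a5 they were Rbm20 (r = 0.987), Sema3e, Kcna4, Epha3 and Ahr, and Sema3e, a secreted guidance factor, was at 12.4 and 13.2 FPKM in siPdgfra, 4.82 and 4.46 in siSbp2l and 2.27 to 3.75 in the controls. For Pkd2l1 they were Heg1 (r = 0.989), Chrm4, Pla2g16, D10Bwg1379e and St14. Heg1, a membrane receptor, had the rise in NC siRNA #1 too, with 18.0 and 17.4 FPKM in siPdgfra, 3.99 and 4.04 in NC siRNA #1 and 1.02 to 1.61 in the other controls. For Fam38b they were 4930506M07Rik (r = 0.994), Tet3, Tmem200c, Thsd1 and Irf2, and for Npbwr1 they were Cnih3 (r = 0.990), Cubn, Thbs2, Ifi35 and Six4.

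In structure the 4 genes had little in common. Their exon lengths were 4096 bases for Slc44a5, 3321 for Pkd2l1, 10724 for Fam38b and 3692 for Npbwr1, the third longer than those of 98.4% of the genes tested. The gene spans were 298285 bases for Slc44a5, 376971 for Fam38b and 44806 for Pkd2l1, while that of Npbwr1 equals its exon length, so this gene model has no intron. The GC content of their longest coding transcript in GENCODE was 46.8% to 51.6%, above 32.1% to 57.8% of the 10557 tested genes with a value.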

How the data were processed

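Primary mouse OPC/OLs were sequenced as stranded mRNA libraries in 7 groups of 2, and groups were taken from the sample titles. The authors processed the reads with OmicSoft ArrayStudio on the mm10 refGene model, aligner settings not given in the sources used here, and deposited 1 table of FPKM values per gene and library. Although it is presented as counts, its values are not whole numbers, so a test for counts was not used. A second table gives gene coordinates and exon lengths, and its log2 fold changes, p-values and adjusted p-values from the authors' own DESeq2 comparisons of siSbp2l were not used. The members and lists were chosen with earlier results of these data known, and no p-value is given for a member.

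FPKM values were used as deposited. Genes with FPKM of at least 1 in at least 2 fitted libraries were tested on log2(FPKM + 1) with limma 3.58.1 in R 4.3.3 (intensity trend, robust empirical Bayes), two-sided, with Benjamini-Hochberg adjustment over all genes tested. This scale understates the change of low genes. The 12 Day3 libraries were fitted together (11650 genes, 6 residual degrees of freedom), and all 14 for Day0 (11874 genes, 7 residual degrees of freedom). A call needed a 2-fold change and an adjusted p under 0.05. The fit was also run on simulated data with the same spread setting in all groups. The non-treated pair was wider than the others, and no result here rests on that run. Depth was recovered from the steps between low FPKM values, of which 88.8% to 92.7% in genes with 1 transcript came out whole within 0.1 of a fragment. The floor of 3 fragments covers counting error only. Named genes were the 4 members, the targeted genes, called genes of the lists, paralogs, tested genes within 500 kb, the 5 genes most correlated with each member and the 15 with the largest ratio of siPdgfra to the other libraries. Untested list genes that are named, and Dcx, Mx2, Rbfox3, Mtap2, Avil, Prph, Cspg4, Ptprz1, Olig1 and Olig2, were chosen after their values were seen. Alternatives varied the pseudocount, filter, scaling, control groups, moderation, replicate block and libraries.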

Additional observations from a re-analysis of the deposited data

Results flagged for a closer look

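Pkd2l1 differed between the non-targeting siRNA groups, at 2.47 and 2.01 FPKM in NC siRNA #1 and 0.244 and 0.184 FPKM in NC siRNA #2, a log2 difference of 1.41 (SE 0.11), where 2.36% of genes were called higher in NC siRNA #1. The result was noted because the levels of 1 gene in these 2 control groups lay further apart than the libraries within a group, and the comparison was made after the values were seen. The cause was not tested. Over the fits without 1 library the difference lay between 1.31 and 1.52, and with a pseudocount of 5 it was 0.47, under 2-fold.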

How the results depend on the processing

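With 2 libraries a group, each spread is poorly known, and the low levels of Pkd2l1 and Npbwr1 rest on few fragments. With a pseudocount of 0.1 the calls were 1527 in siPdgfra, 1376 in siSbp2l and 399 in the NC siRNAs, and Slc44a5 against Day0 was past 2-fold (1.06). With a pseudocount of 5 they were 382, 392 and 33, with 1915 against Day0, 10 listed genes and 1 neighbour, and Fam38b against Day0 (0.40) was under 2-fold. Without the 2-fold limit they were 6453, 6226, 3277 and 7952, with 55 listed genes and 12 neighbours. As deposited, 363 genes were higher and 475 lower in siSbp2l, and with median-ratio scaling 214 and 617. Pkd2l1 against Day0 turned from -0.18 to 0.21 with the mean of the 4 controls. In siPdgfra against NC siRNA #1 alone, Ermn turned to -1.08 and P2ry12 to -0.33.

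Without 1 library at a time, the calls were 920 to 966 in siPdgfra, 814 to 875 in siSbp2l, 146 to 167 in the NC siRNAs and 3049 to 3444 against Day0, with 17 to 19 listed genes and 2 to 4 neighbours. Against Day0, Fam38b was at 1.17 to 1.31, Slc44a5 at 0.63 to 1.09 (past 2-fold without non-treated replicate 1), Pkd2l1 at -0.23 to -0.14 and Npbwr1 at 0.11 to 0.12, and Npbwr1 could not be tested without a siPdgfra library.

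Over 21 pairs of groups, the deviations of libraries with the same number correlated at r = -0.38 to 0.473, with a median of 0.025. Of these, 4 were over 0.1 and 8 below 0. Whether the numbers pair the libraries of some groups cannot be told from this range. A replicate block left 930 calls in siPdgfra, 838 in siSbp2l, 149 in the NC siRNAs, 3157 against Day0, 18 listed genes and 3 neighbours, and changed no call of a gene named here.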
